A study of Mus musculus with 34 samples.

Results

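The antigen receptor of T cells was followed through 10 genes in mouse blood: the constant regions Trac, Trbc1 and Trbc2, the signalling chains Cd3d, Cd3e, Cd3g and Cd247, and the co-receptors Cd4, Cd8a and Cd8b1. The genes were chosen for their place in this complex and matched by symbol, and all 10 were found among the 54532 gene IDs of the count tables. All 10 also passed the filter on low counts in every comparison. Blood RNA was sequenced from wild-type mice, 1 animal per library, in 4 groups: 7 mice given ALY688 and lipopolysaccharide (ALY688+LPS), 4 given LPS alone, 10 given ALY688 alone and 9 given phosphate-buffered saline (PBS). ALY688 is named in the series title as an agonist of the adiponectin receptors, and LPS is a bacterial cell wall product sensed through Toll-like receptor 4. The sources used here state no dose, sampling time, age or sex. The libraries of LPS mice 3, 4 and 5 and of PBS mouse 10 are not analysed here. The series text describes a comparison of mice with and without ALY688, and a separate sublethal LPS model with and without ALY688. Mice with and without LPS may therefore belong to separate experiments, so an effect of LPS and a difference between experiments cannot be told apart. The series text also names plasma for 1 of these experiments and whole blood for the other, while all samples are labelled blood. A difference in sample type could not be checked.

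The receptor of most T cells is a pair of an alpha and a beta chain. Each chain joins a variable part, assembled from V and J gene segments (and a D segment in beta), to a constant region encoded by Trac or by either of Trbc1 and Trbc2. The receptor itself carries no signalling tail. It is assembled with the CD3 delta, epsilon and gamma chains and with the zeta chain encoded by Cd247, whose phosphorylation by the kinase Lck recruits the kinase Zap70. CD4 binds MHC class II and marks helper and regulatory T cells, while CD8, a dimer of the products of Cd8a and Cd8b1, binds MHC class I and marks cytotoxic T cells. Some mouse dendritic cells carry CD4 or the CD8 alpha chain, and NK cells use the zeta chain without a T cell receptor.

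The members lie on 4 mouse chromosomes (coordinates from GENCODE M21 on GRCm38, since the sources used here do not name the authors' build). Cd3g (chr9:44969572-44980431, minus strand), Cd3d (chr9:44981786-44987339, plus strand) and Cd3e (chr9:44998740-45009627, minus strand) form 1 cluster, and the starts of Cd3d and Cd3g stand 1355 bases apart on opposite strands. Cd8b1 (chr6:71322788-71337494) and Cd8a (chr6:71373427-71379173) are neighbours on the plus strand, 35933 bases apart. Trbc1 (chr6:41538218-41539881) and Trbc2 (chr6:41546730-41548352) follow each other on the same strand with 6849 bases between them. Cd4 lies at chr6:124864692-124888221 on the minus strand, Trac at chr14:54220521-54224206 and Cd247 at chr1:165788681-165877277, both on the plus strand. Exons of Cd247 share 3007 bases with Pou2f1 on the opposite strand and 206 with Gm16565 on the same strand, and exons of Cd3e share 135 bases with the antisense transcript Gm48719. The sources used here do not say whether counting used strand, so reads in these stretches could not be assigned, and the levels of Cd247 are uncertain to that extent.

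Trbc1 and Trbc2 are near-identical, which bears on every value of either gene. Their first exons, of 375 bases each (chr6:41538218-41538592 for Trbc1 and chr6:41546730-41547104 for Trbc2), differ at 1 base, C260A from Trbc1 to Trbc2, with positions counted from 1 at the first base of the exon on the plus strand. The stretch around that base, positions 201 to 320, is shown with the differing base in capitals (GRCm38, plus strand, chr6:41538418-41538537 for Trbc1 and chr6:41546930-41547049 for Trbc2).
Trbc1: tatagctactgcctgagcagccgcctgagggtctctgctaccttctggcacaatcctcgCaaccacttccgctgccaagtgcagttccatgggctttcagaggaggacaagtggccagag
Trbc2: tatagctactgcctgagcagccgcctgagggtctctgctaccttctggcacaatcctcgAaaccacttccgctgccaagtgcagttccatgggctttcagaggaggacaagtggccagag
Over the whole coding part, 495 of 518 bases were identical (95.56%), and the longest identical run was 259 bases. The sources used here do not say how a read matching both genes was counted, so the split between them is uncertain and their sum is given as well.

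The promoters of the CD3 genes and of Cd247 are shown because these genes encode chains of 1 complex. In the main fits below, each was lower in mice with LPS than in mice without it, Cd247 by less than the CD3 genes. RefSeq entries (GRCm38.p6) matched 5 of the 10 members, Cd3d, Cd3e, Cd3g, Cd247 and Cd8a, and none was found for Trac, Trbc1, Trbc2, Cd4 and Cd8b1. The 250 bases before the annotated start are given for Cd3d (chr9:44981536-44981785, plus strand), Cd3e (chr9:45009612-45009861, minus strand), Cd3g (chr9:44980432-44980681, minus strand) and Cd247 (chr1:165788431-165788680, plus strand), with motif matches in capitals.
Cd3d: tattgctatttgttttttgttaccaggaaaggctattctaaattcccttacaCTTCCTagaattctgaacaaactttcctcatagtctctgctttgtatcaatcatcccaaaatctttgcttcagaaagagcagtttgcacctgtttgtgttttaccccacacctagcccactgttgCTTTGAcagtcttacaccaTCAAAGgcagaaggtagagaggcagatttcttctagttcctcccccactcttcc
Cd3e: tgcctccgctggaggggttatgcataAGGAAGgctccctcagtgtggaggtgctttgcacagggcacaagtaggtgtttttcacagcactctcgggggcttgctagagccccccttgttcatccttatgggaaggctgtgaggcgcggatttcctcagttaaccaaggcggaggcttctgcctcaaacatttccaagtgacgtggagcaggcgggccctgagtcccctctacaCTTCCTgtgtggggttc
Cd3g: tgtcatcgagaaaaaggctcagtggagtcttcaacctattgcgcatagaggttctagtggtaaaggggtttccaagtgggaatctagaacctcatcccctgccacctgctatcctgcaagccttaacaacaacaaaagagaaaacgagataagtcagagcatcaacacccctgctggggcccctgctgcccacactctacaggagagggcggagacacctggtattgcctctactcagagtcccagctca
Cd247: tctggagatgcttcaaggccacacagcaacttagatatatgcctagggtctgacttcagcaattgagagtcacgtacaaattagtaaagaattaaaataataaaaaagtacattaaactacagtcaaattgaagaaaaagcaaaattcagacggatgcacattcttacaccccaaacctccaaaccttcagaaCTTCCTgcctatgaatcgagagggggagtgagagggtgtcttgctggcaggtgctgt
Core motifs of 4 families of lymphocyte transcription factors were searched on both strands, and no matches overlapped. The ETS core AGGAAG stood in Cd3d, Cd3e and Cd247, 3 of the 5 promoters, and in 29.48% of 32851 mouse promoters of the same length. The TCF/LEF core CTTTGA stood in Cd3d alone of the 5, at 73 and 54 bases before the start, and in 13.83% of all promoters. The RUNX core TGTGGT (14.05% of all promoters) and the E-box CAGCTG (13% of all promoters) stood in none of the 5. A match is a description of the sequence and no evidence of binding.

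Libraries held 9554964 to 17338214 counts, and globin transcripts took 18.5% to 64.4% of them. The 10 members together held 278 to 6795 counts per library, and none of them was at 0 in any library. The lowest count was 13, for Cd3g in ALY688+LPS mouse 8. Levels are given as CPM, counts relative to the library total after scaling with TMM factors over all 30 libraries. Fewer than 16000 genes had a count in ALY688+LPS mice 6 and 8, ALY688 mouse 7 and PBS mice 5, 6 and 9. Some of the results that change without them are named as such. PBS mouse 9 was low across the complex, with a sum of 90.3 CPM over the members against a PBS median of 276 CPM. In bulk blood RNA, fewer T cells and less RNA per T cell cannot be told apart.

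**Figure D1:**
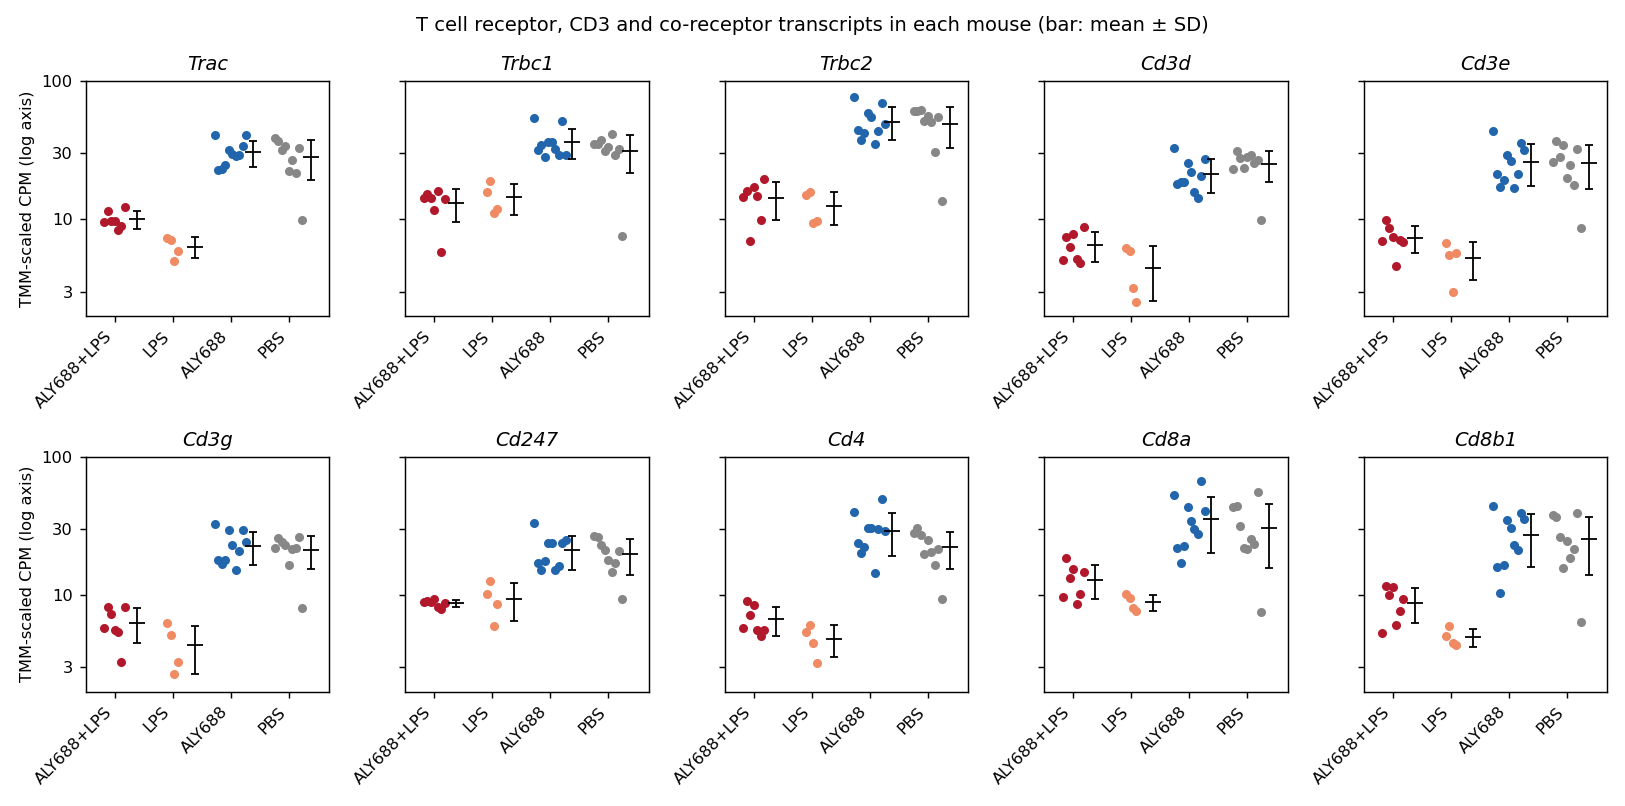
Level of each member in each mouse (TMM-scaled CPM, log axis) in the ALY688+LPS (7 mice), LPS (4), ALY688 (10) and PBS (9) groups, with the mean ± SD beside the points of each group. Levels of both groups with LPS sit below most mice without it for every member, and PBS mouse 9 is the lowest grey point in each panel.

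Per kilobase of exon, the constant regions led the complex in every group. Trbc2 averaged 20.4 ± 6.25 CPM per kb in ALY688+LPS mice, 18.0 ± 4.84 in LPS mice, 73.6 ± 19.9 in ALY688 mice and 70.5 ± 23.3 in PBS mice (SD). In PBS mice it was followed by Trbc1 (41.9 ± 12.8), Trac (30.2 ± 9.72), Cd8b1, Cd3d (13.8 ± 3.42) and Cd8a (8.39 ± 4.06). Cd3g (6.42 ± 1.72), Cd3e (6.23 ± 2.19), Cd4 (5.47 ± 1.63) and Cd247 (3.69 ± 1.05) stood last. The mean ± SD ranges of all neighbours in this PBS order overlapped. Cd247 had the lowest mean of the 10 per kilobase in PBS, ALY688 and ALY688+LPS mice. In ALY688+LPS mice it stood close to Cd4, at 1.63 ± 0.0951 CPM per kb against 1.65 ± 0.392. In LPS mice Cd4 was the lowest, at 1.19 ± 0.305 CPM per kb against 1.75 ± 0.524 for Cd247.

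The first pair of comparisons set mice with LPS against mice without it. All 10 members were lower with LPS at an adjusted p below 0.05, both in ALY688+LPS against ALY688 mice and in LPS against PBS mice (edgeR quasi-likelihood test, Benjamini-Hochberg over all genes). Of all genes tested in ALY688+LPS against ALY688, 53% were called, 26.4% higher and 26.6% lower. In LPS against PBS 38.7% were called, 20.9% higher and 17.9% lower. The median log2 fold change of the 10 was -1.67 in ALY688+LPS against ALY688, beside -0.05 over all 12266 genes tested. In LPS against PBS it was -2.18, beside -0.04 over 12353 genes. The call in LPS against PBS rests on the scaling. With library totals alone in place of TMM, 0 of the 10 were called, and the median of all genes moved to 1.04. Relative to that median the members stood at -1.03 to -2.37, and 94.94% of all called genes were then higher, against 53.87% with TMM. In ALY688+LPS against ALY688, all 10 were called under either scaling, and 60.52% of all called genes were higher with library totals alone, against 49.76% with TMM. Statements below on whether groups overlap hold for TMM-scaled levels: with levels from library totals alone, chosen as an alternative after the data were seen, the groups overlapped for all 10 members in both comparisons.

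Among the CD3 chains, Cd3d (delta) stood at a lowest of 4.82, a median of 6.32 and a highest of 8.80 CPM in ALY688+LPS mice. LPS mice 2, 6, 7 and 8 held 6.25, 5.94, 3.17 and 2.54 CPM. The lowest, median and highest were 14.4, 19.5 and 32.9 CPM in ALY688 mice, and 9.88, 27.0 and 31.1 CPM in PBS mice. On the TMM scale every mouse with LPS lay below every mouse without it. From library totals alone, Cd3d ranged over 1.88 to 10.5 CPM in ALY688+LPS mice and 3.02 to 14.9 CPM in LPS mice, against 5.23 to 42.5 CPM in ALY688 mice and 3.84 to 40.1 CPM in PBS mice, so that the groups overlapped. Cd3d fell by 1.71 ± 0.18 on the log2 scale (SE) in ALY688+LPS against ALY688 (adjusted p = 1.28e-07). It fell by 2.46 ± 0.30 in LPS against PBS, the largest change of the 10 there (adjusted p = 1.34e-05).

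Cd3e (epsilon), the chain that every CD3 dimer contains, ranged over 4.57 to 9.92 CPM in ALY688+LPS mice and 2.98 to 6.69 CPM in LPS mice, against 16.8 to 43.3 CPM in ALY688 mice and 8.70 to 36.7 CPM in PBS mice. Cd3g (gamma) ranged over 3.30 to 8.23 CPM in ALY688+LPS mice and 2.69 to 6.29 CPM in LPS mice, against 15.2 to 32.5 CPM in ALY688 mice and 8.00 to 26.3 CPM in PBS mice. On the TMM scale neither gene overlapped between ALY688+LPS and ALY688 mice, or between LPS and PBS mice. The log2 fold changes of Cd3e were -1.84 ± 0.21 in ALY688+LPS against ALY688 and -2.28 ± 0.33 in LPS against PBS. Those of Cd3g were -1.83 ± 0.19 and -2.26 ± 0.30 in the same comparisons.

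Cd247, which encodes the zeta chain, stood at 7.87, 8.83 and 9.28 CPM (lowest, median and highest) in ALY688+LPS mice, the narrowest spread of any member there. LPS mice 2, 6, 7 and 8 held 10.1, 12.6, 5.96 and 8.60 CPM. The corresponding values were 15.2, 20.6 and 33.1 CPM in ALY688 mice and 9.41, 20.9 and 26.9 CPM in PBS mice. ALY688+LPS mice lay below all ALY688 mice, while LPS mice 2 and 6 lay above PBS mouse 9. Cd247 had the smallest change of the 10 in both comparisons, -1.28 ± 0.15 in ALY688+LPS against ALY688 (adjusted p = 7.12e-07) and -1.08 ± 0.26 in LPS against PBS (adjusted p = 0.00349).

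Trac, the constant region of the alpha chain, stood at 8.34, 9.65 and 12.4 CPM in ALY688+LPS mice. LPS mice 2, 6, 7 and 8 held 7.33, 7.06, 5.00 and 5.92 CPM. The lowest, median and highest were 22.9, 29.3 and 41.0 CPM in ALY688 mice and 9.88, 31.5 and 38.6 CPM in PBS mice. On the TMM scale, groups with and without LPS did not overlap within either comparison. Trac had the smallest adjusted p of the members in ALY688+LPS against ALY688, 8.26e-09, with a log2 fold change of -1.61 ± 0.14, and it fell by 2.16 ± 0.29 in LPS against PBS.

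For the beta chain, Trbc1 stood at 5.84, 14.3 and 16.1 CPM in ALY688+LPS mice, and LPS mice 2, 6, 7 and 8 held 15.8, 18.9, 11.1 and 11.8 CPM. It stood at 28.1, 33.2 and 53.7 CPM in ALY688 mice and at 7.53, 33.1 and 41.3 CPM in PBS mice. All LPS mice lay above PBS mouse 9 and below the other PBS mice. Trbc2 stood at 7.02, 14.8 and 19.6 CPM in ALY688+LPS mice, and LPS mice 2, 6, 7 and 8 held 14.9, 15.7, 9.32 and 9.78 CPM. Its values were 34.8, 46.2 and 76.2 CPM in ALY688 mice and 13.6, 54.5 and 61.4 CPM in PBS mice. The log2 fold changes of Trbc1 were -1.45 ± 0.18 in ALY688+LPS against ALY688 and -1.12 ± 0.30 in LPS against PBS (adjusted p = 0.00867, the largest of the 10). Those of Trbc2 were -1.84 ± 0.20 and -1.97 ± 0.33. With both genes counted as 1, which does not depend on the split, the log2 fold change was -1.67 in ALY688+LPS against ALY688 and -1.58 in LPS against PBS (edgeR adjusted p = 1.38e-07 and 0.00130).

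Of the co-receptors, Cd4 stood at 5.08, 5.72 and 9.01 CPM in ALY688+LPS mice, and LPS mice 2, 6, 7 and 8 held 5.40, 6.10, 4.52 and 3.24 CPM. It stood at 14.3, 29.5 and 49.1 CPM in ALY688 mice and at 9.41, 21.6 and 30.7 CPM in PBS mice. Its groups with and without LPS were fully apart in both comparisons on the TMM scale. Cd4 fell by 2.12 ± 0.21 in ALY688+LPS against ALY688, the largest change of the 10 there (adjusted p = 9.10e-08), and by 2.19 ± 0.28 in LPS against PBS.

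Cd8a stood at 8.58, 13.3 and 18.6 CPM in ALY688+LPS mice, and LPS mice 2, 6, 7 and 8 held 10.2, 9.49, 8.07 and 7.62 CPM. It stood at 17.1, 32.0 and 66.9 CPM in ALY688 mice and at 7.53, 25.6 and 55.9 CPM in PBS mice. ALY688+LPS mouse 3 lay above ALY688 mouse 3, the only overlap of these groups for Cd8a, and PBS mouse 9 lay below all LPS mice. Cd8b1, the CD8 beta chain, stood at 5.28, 9.37 and 11.5 CPM in ALY688+LPS mice, and LPS mice 2, 6, 7 and 8 held 5.04, 5.98, 4.52 and 4.33 CPM. It stood at 10.4, 26.8 and 44.2 CPM in ALY688 mice and at 6.35, 24.7 and 39.4 CPM in PBS mice. LPS mice lay below all PBS mice for Cd8b1 with TMM, while ALY688 mouse 3 lay within the range of ALY688+LPS mice. The log2 fold changes of Cd8a were -1.47 ± 0.26 in ALY688+LPS against ALY688 and -1.80 ± 0.38 in LPS against PBS, and those of Cd8b1 were -1.64 ± 0.28 and -2.35 ± 0.38.

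Counted over the complex with TMM, the groups did not overlap for 8 of 10 members in ALY688+LPS against ALY688 (all but Cd8a and Cd8b1), beside 6.53% of all genes tested that were lower with no overlap. They did not overlap for 6 of 10 members in LPS against PBS (Cd3d, Cd3e, Cd3g, Trac, Cd4 and Cd8b1), beside 5.92% of all genes. From library totals alone, they stood apart for 0 of 10 members in either comparison, beside 0.106% of all genes that were lower with no overlap and 2.93% that were higher in ALY688+LPS against ALY688, and 0.704% lower and 19.3% higher in LPS against PBS. B cell and neutrophil markers moved in the same comparisons. All 10 B cell markers were called lower and all 10 neutrophil markers higher in both. Of all genes, 26.6% were lower and 26.4% higher in ALY688+LPS against ALY688, and 17.9% and 20.9% in LPS against PBS. With library totals alone, 6 of the B cell markers were called in LPS against PBS, beside 298 of 12353 genes called lower. The B cell markers summed to 112 to 630 CPM in ALY688+LPS mice, 93.2 to 246 CPM in LPS mice, 784 to 1670 CPM in ALY688 mice and 588 to 1896 CPM in PBS mice. The neutrophil markers summed to 5651 to 13628 CPM in ALY688+LPS mice, 4249 to 14526 CPM in LPS mice, 532 to 1441 CPM in ALY688 mice and 583 to 2203 CPM in PBS mice. Their part in the lower T cell values was not tested.

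**Figure D2:**
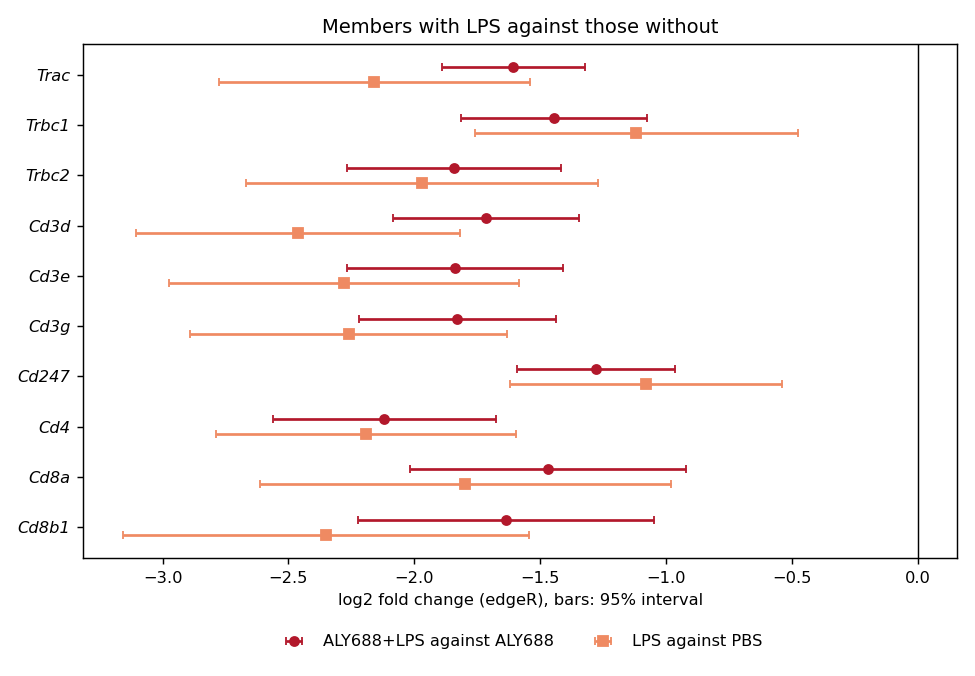
Log2 fold change of each member from edgeR with its 95% interval, for ALY688+LPS against ALY688 (circles) and LPS against PBS (squares). All 20 points lie below 0, from -1.08 for Cd247 in LPS against PBS to -2.46 for Cd3d in the same comparison.

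The other pair of comparisons asked how ALY688 bears on the complex, with LPS and without it. No member passed in either, and neither did any gene (0% called of 12741 in ALY688+LPS against LPS and 0% of 11708 in ALY688 against PBS). At an unadjusted p under 0.05, edgeR found 464 genes in ALY688+LPS against LPS and 1250 in ALY688 against PBS. DESeq2 and limma-voom also called 0 members in both. With LPS, 8 of the 10 members had higher means with ALY688, and the median log2 fold change was 0.49 beside -0.00135 over all genes. With library totals alone, the median of all genes moved to -0.49, and only Trac and Cd8b1 kept a positive sign, while relative to that median the same 8 members stayed above 0. Markers of several cell types lay mostly on one side of 0 in the same comparison, with 0 called in each list. All 10 B cell markers (median log2 fold change 0.46), all 10 erythroid markers (1.37), all 9 platelet markers tested (0.38), 9 of 10 neutrophil markers (0.15) and 18 of 20 other T cell markers (0.59) were positive. Of the 12 NK cell markers, 11 were negative (median -0.47). Monocyte markers (5 of 9 positive, median 0.000226) and dendritic cell markers (3 of 8 tested, median -0.12) lay on both sides of 0. Without the libraries of few detected genes, the erythroid median was -0.0159, the platelet median -0.00271 and the dendritic cell median 0.0846. With library totals alone, medians were -0.26 for B cell, -0.0427 for other T cell, -0.14 for platelet and -0.11 for neutrophil markers. The median over all genes was then -0.49. The part of these cell types in the member values was not tested.

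Trac had the smallest unadjusted p of all 12741 genes in ALY688+LPS against LPS, 0.00109, with a log2 fold change of 0.65 ± 0.15 (edgeR adjusted p = 0.913). With TMM all 7 ALY688+LPS mice, at 8.34 to 12.4 CPM, lay above all 4 LPS mice, at 5.00 to 7.33 CPM. Such a separation, higher with no overlap, held with TMM for 1 of the 10 members and for 0.102% of all genes. From library totals alone it held for 0 members and 0% of all genes (0.0471% were lower with no overlap), and Trac ran over 3.47 to 16.5 CPM in ALY688+LPS mice and 4.76 to 17.8 CPM in LPS mice. Cd8b1 averaged 8.77 ± 2.50 CPM in ALY688+LPS mice and 4.96 ± 0.741 CPM in LPS mice (SD, n = 7 and 4), with a log2 fold change of 0.80 ± 0.23 (unadjusted p = 0.00426, edgeR adjusted p = 0.913). ALY688+LPS mouse 1, at 5.28 CPM, lay below LPS mouse 6, at 5.98 CPM, and the other ALY688+LPS mice lay above every LPS mouse. Cd8a, with 12.9 ± 3.60 CPM in ALY688+LPS mice and 8.84 ± 1.20 CPM in LPS mice, had a log2 fold change of 0.53 ± 0.21 (unadjusted p = 0.0225). These 3 genes were the members with an unadjusted p under 0.05.

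For the other members, none of which passed, differences between members were not tested. The log2 fold changes in ALY688+LPS against LPS were 0.51 ± 0.27 for Cd3d, 0.47 ± 0.23 for Cd3e, 0.52 ± 0.27 for Cd3g and 0.46 ± 0.22 for Cd4. They were 0.18 ± 0.25 for Trbc2, -0.11 ± 0.17 for Cd247 and -0.14 ± 0.22 for Trbc1. The 95% interval of Cd247 ran from -0.49 to 0.26, and that of Trbc1 from -0.62 to 0.35. For Trbc1 and Trbc2 summed, the log2 fold change was 0.01, with sums of 27.2 ± 6.35 CPM in ALY688+LPS mice and 26.9 ± 6.92 CPM in LPS mice (SD, n = 7 and 4).

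Without LPS, the log2 fold changes in ALY688 against PBS ran from -0.24 ± 0.17 for Cd3d to 0.37 ± 0.20 for Cd4 (unadjusted p = 0.0723, edgeR adjusted p = 0.443). Their median was 0.08, beside 0.03 over all genes. Trac stood at 30.5 ± 6.51 CPM in ALY688 mice and 28.2 ± 9.08 CPM in PBS mice (SD, n = 10 and 9), and its 95% interval ran from -0.28 to 0.46. Under library totals alone the median of all genes moved to 0.50. The signs of the small values were not stable. Without the libraries of few detected genes, 7 of the members with a positive value turned negative.

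The difference between the effects of ALY688 with and without LPS was tested as an interaction, and no member passed (0% of 13476 genes called). The largest value was that of Cd3d, 0.74 ± 0.32 (unadjusted p = 0.0261, edgeR adjusted p = 0.507), for which the mean was higher with ALY688 under LPS and lower with ALY688 without it. The direction rests on the scaling: from library totals alone the interaction was -0.38 for Cd3d, -0.35 for Cd8b1 and -0.42 for Trac, with a median of -0.997 over all genes, and relative to that median these values were 0.61, 0.65 and 0.58. At an unadjusted p under 0.05 stood 1216 genes in all. DESeq2 called 4 of all genes and limma-voom 0, and neither called a member. The interaction was 0.71 ± 0.45 for Cd8b1, 0.55 ± 0.28 for Trac and -0.33 ± 0.33 for Trbc1.

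**Figure D3:**
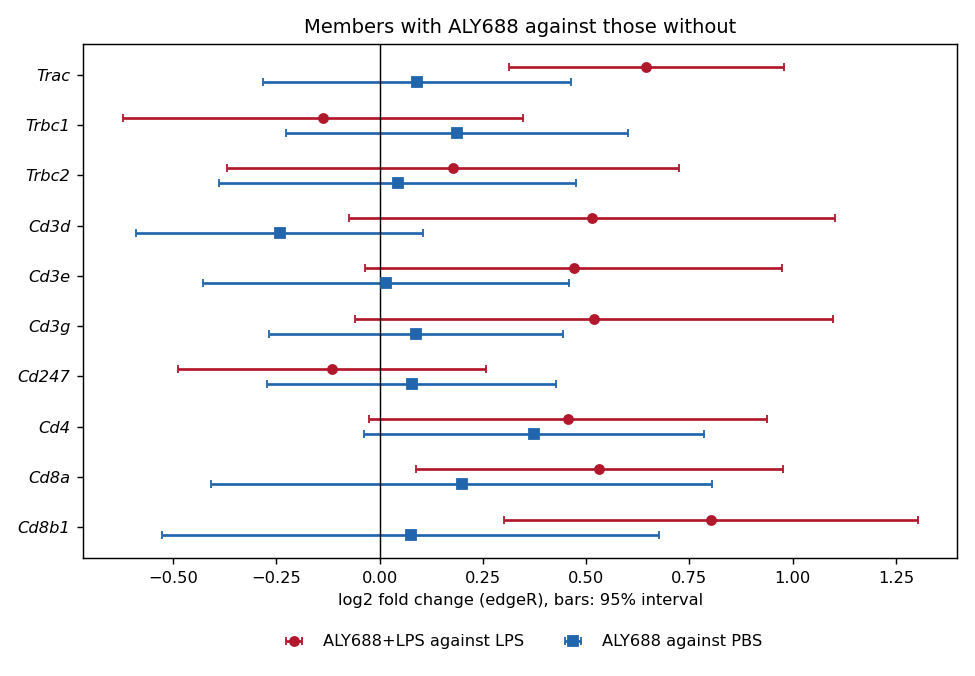
Log2 fold change of each member from edgeR with its 95% interval, for ALY688+LPS against LPS (circles) and ALY688 against PBS (squares). The intervals of Trac, Cd8a and Cd8b1 lie above 0 in ALY688+LPS against LPS, where no member passed after adjustment, and every interval of ALY688 against PBS covers 0.

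Ratios between members within a library do not depend on library scaling. The ratio of Cd8a to Cd4, which sets the markers of the CD8 and CD4 lineages against each other, was tested in 4 comparisons. Its mean log2 value was 0.93 ± 0.25 in ALY688+LPS mice and 0.26 ± 0.40 in ALY688 mice (SD, n = 7 and 10), a difference of 0.67 (exact permutation test, two-sided, p = 0.00175, adjusted over the 4 comparisons 0.00699). In LPS mice it was 0.90 ± 0.24, against 0.35 ± 0.50 in PBS mice (n = 4 and 9), a difference of 0.55 (exact permutation p = 0.0699, adjusted 0.140). That comparison turned on PBS mouse 8, whose log2 ratio was the highest of its group at 1.37, and without it the difference was 0.67 (exact permutation, adjusted p = 0.00808). The differences for ALY688 were 0.03 with LPS (exact permutation, adjusted p = 0.873) and -0.09 without it (exact permutation, adjusted p = 0.871).

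With Cd8b1, the CD8 chain that dendritic cells lack, in place of Cd8a, neither comparison across LPS passed. The mean log2 ratio of Cd8b1 to Cd4 was 0.37 ± 0.29 in ALY688+LPS mice and -0.15 ± 0.49 in ALY688 mice, a difference of 0.52 (exact permutation, adjusted p = 0.0917). It was 0.07 ± 0.23 in LPS mice and 0.10 ± 0.44 in PBS mice, a difference of -0.02 (exact permutation, adjusted p = 0.965). The ratio of Cd8b1 to Cd8a itself was -0.56 ± 0.18 in ALY688+LPS mice, -0.83 ± 0.14 in LPS mice, -0.41 ± 0.20 in ALY688 mice and -0.26 ± 0.22 in PBS mice on the log2 scale. Dendritic cell markers summed to 8.89 to 22.8 CPM in ALY688+LPS mice, 6.63 to 17.8 CPM in LPS mice, 16.9 to 55.8 CPM in ALY688 mice and 12.8 to 41.0 CPM in PBS mice. None of the 9 was at 0 in all mice of a group, but Cd209a was at 0 in 2 LPS and 2 ALY688+LPS mice. In LPS against PBS 3 of the 9 were called lower and 1 higher, beside 17.9% and 20.9% of all genes. In ALY688+LPS against ALY688 4 were lower and 0 higher, beside 26.6% and 26.4%. Without the libraries of few detected genes, 4 were lower and 1 higher there, beside 3562 and 3846 of all 12735 genes. In LPS against PBS 3 were then lower and 0 higher, beside 2559 and 2735 of all 12303 genes. The part of dendritic cells in the ratio was not tested.

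2 further ratios were chosen after the values had been seen and are given without a test. The log2 ratio of Cd247 to Cd3e averaged 0.27 ± 0.31 in ALY688+LPS mice, 0.84 ± 0.30 in LPS mice, -0.29 ± 0.14 in ALY688 mice and -0.33 ± 0.33 in PBS mice. LPS mice, at 0.58 to 1.20, lay above all PBS mice, whose highest was 0.11. NK cell markers are given beside it. They summed to 429 to 1114 CPM in ALY688+LPS mice, 817 to 1133 CPM in LPS mice, 243 to 587 CPM in ALY688 mice and 249 to 562 CPM in PBS mice. In LPS mice Tyrobp and Gzma had the highest means, 256 and 219 CPM, against 87.3 and 53.1 CPM in PBS mice. Klrd1 averaged 17.9 CPM in LPS and 17.4 CPM in PBS mice, while Ncr1 averaged 29.1 and 8.99 CPM. In ALY688+LPS against ALY688, 8 of the 12 markers had a positive and 4 a negative log2 fold change. Klra8 averaged 7.43 CPM in ALY688+LPS and 10.9 CPM in ALY688 mice, while Ncr1 averaged 20.7 and 13.1 CPM. Of the 12 NK cell markers, 8 rose and 0 fell in LPS against PBS, beside 20.9% of all genes higher and 17.9% lower. In ALY688+LPS against ALY688, 3 rose and 1 fell, beside 26.4% of all genes higher and 26.6% lower. Without the libraries of few detected genes, 5 rose and 0 fell there, beside 3846 higher and 3562 lower of all 12735 genes. Scaled by library totals alone, 11 rose in LPS against PBS, beside 5597 of all 12353 genes. With that scaling 3 rose in ALY688+LPS against ALY688, beside 1846 of all 12266 genes. The part of NK cells in the level of Cd247 was not tested.

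The log2 ratio of Trbc1 to Trbc2 averaged -0.10 ± 0.59 in ALY688+LPS mice, 0.22 ± 0.09 in LPS mice, -0.48 ± 0.22 in ALY688 mice and -0.64 ± 0.26 in PBS mice. All 4 LPS mice, at 0.09 to 0.28, lay above all PBS mice, whose highest was -0.09. ALY688+LPS mice spread over -0.75 to 1.03 and overlapped every other group. The uncertain split of reads between the genes applies to each of these values.

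**Figure D4:**
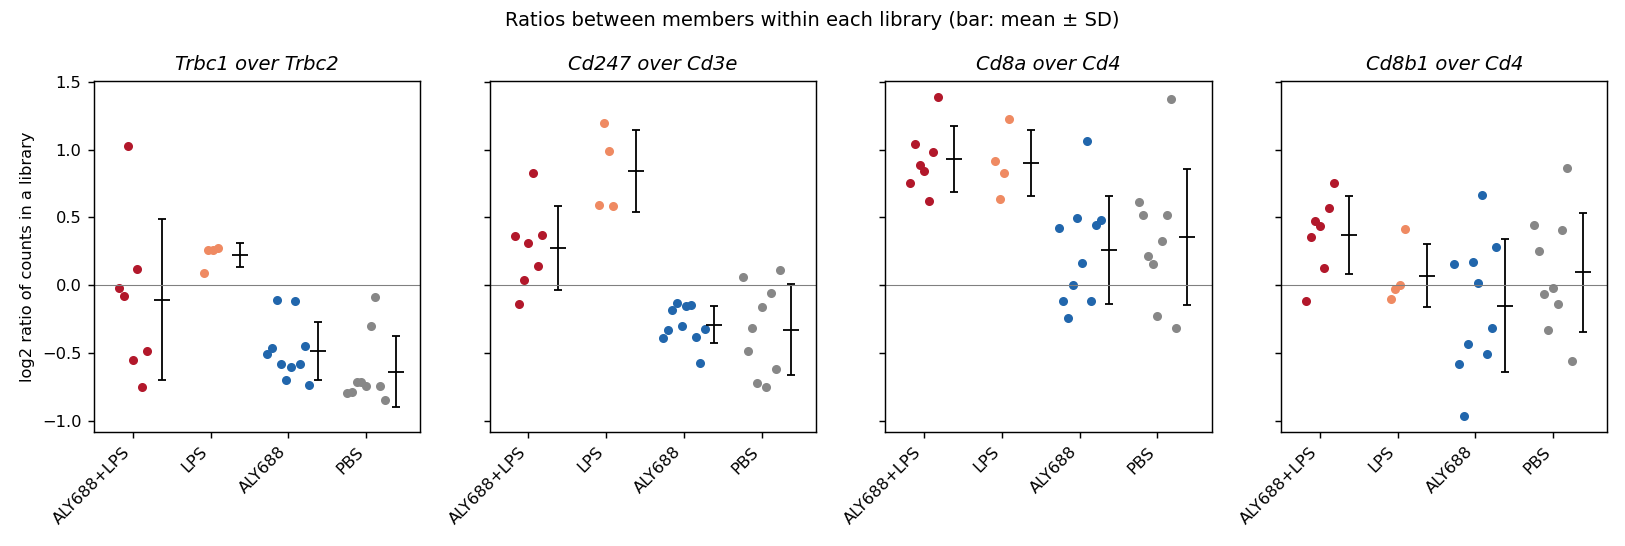
Log2 ratio of counts of 2 members within each library in the ALY688+LPS, LPS, ALY688 and PBS groups, with the mean ± SD beside the points. LPS mice lie above all PBS mice for Trbc1 over Trbc2 and for Cd247 over Cd3e, while the groups overlap for both ratios to Cd4.

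Segments of the variable part give a further view of the beta locus, where the Trbj1 segments lie before Trbc1 and the Trbj2 segments before Trbc2. They are described without a test, and the division into Trbj1 and Trbj2 was made after the values had been seen. The 35 Trbv segments summed to 4.50 to 11.3 CPM in ALY688+LPS mice and 4.13 to 6.49 CPM in LPS mice, against 18.2 to 34.6 CPM in ALY688 mice and 16.5 to 31.2 CPM in PBS mice. The 128 Trav segments summed to 1.78 to 2.91 CPM in ALY688+LPS mice and 0.384 to 2.18 CPM in LPS mice, against 4.57 to 11.6 CPM in ALY688 mice and 3.53 to 8.64 CPM in PBS mice. With TMM both sums thus lay lower in every mouse with LPS than in any mouse without it. The Trav sum rested on few counts, with 4 in LPS mouse 7 and 9 in ALY688+LPS mouse 8. From library totals alone both sums overlapped: the Trav sum reached 4.06 CPM in ALY688+LPS mice and 4.15 CPM in LPS mice, against a lowest of 2.11 CPM in ALY688 mice and 1.37 CPM in PBS mice. The Trbv sum reached 14.6 CPM in ALY688+LPS mice and 13.6 CPM in LPS mice, against a lowest of 6.61 CPM in ALY688 mice and 6.39 CPM in PBS mice.

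The 7 Trbj2 segments summed to 0.351 to 1.27 CPM in ALY688+LPS mice and 0.673 to 1.21 CPM in LPS mice, against 1.36 to 3.64 CPM in ALY688 mice and 0.706 to 3.89 CPM in PBS mice. On the TMM scale, the 7 Trbj1 segments differed from these in LPS mice. LPS mice 2, 6, 7 and 8 held 5.64, 9.10, 3.75 and 7.62 CPM of them, within or above the 2.11 to 7.70 CPM of PBS mice. ALY688+LPS mice held 1.52 to 4.74 CPM, against 3.48 to 9.92 CPM in ALY688 mice. In LPS mice the Trbj1 sum rested on 39 to 397 counts per library, and the Trbj2 sum on 7 to 33 counts. The lowest Trbj2 sum of PBS mice, 0.706 CPM in mouse 9, rested on 3 counts. From library totals alone, the Trbj1 sum ran over 3.57 to 22.9 CPM in LPS mice and 0.913 to 7.27 CPM in PBS mice. The Trbj2 sum then ran over 0.641 to 2.20 CPM in LPS mice, within the 0.274 to 3.99 CPM of PBS mice. Trbc1, the constant region next to Trbj1, was also the member with the smallest log2 change but Cd247 in LPS against PBS.

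**Figure D5:**
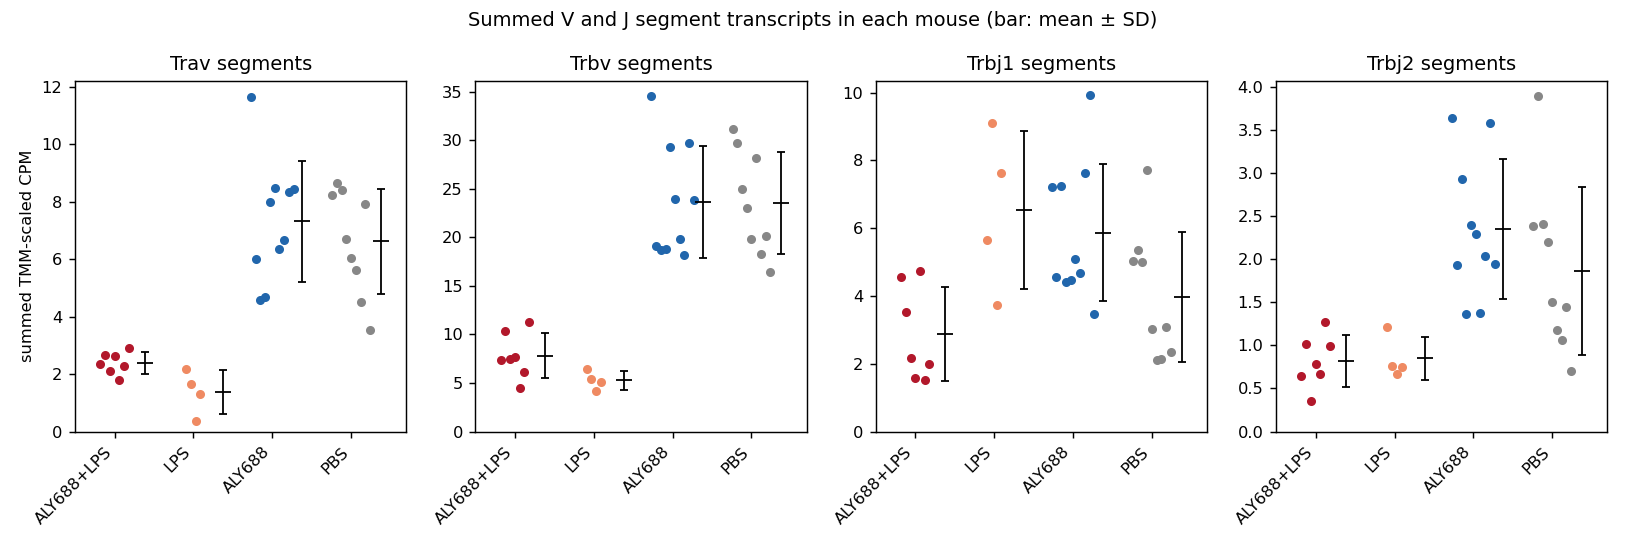
Summed TMM-scaled CPM of the Trav, Trbv, Trbj1 and Trbj2 segments in each mouse, with the mean ± SD beside the points of each group. On this TMM scale, Trav and Trbv sums of mice with LPS lie below all mice without it, while the Trbj1 sums of LPS mice, at 3.75 to 9.10 CPM, overlap those of PBS mice.

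Downstream of the receptor, 38 genes of T cell receptor signalling were followed. In ALY688+LPS against ALY688, 28 of them fell (edgeR, adjusted p below 0.05), 7 rose and 3 did not pass, with a median log2 fold change of -0.77. Of all genes tested there, 26.6% were called lower and 26.4% higher, with a median of -0.05. Among those that fell with the smallest p were Cd2, an adhesion receptor (adjusted p = 2.32e-08), Tespa1 (-1.77 ± 0.18), the inhibitory receptor Cd5 (-1.75 ± 0.20) and the phospholipase Plcg1 (-1.68 ± 0.19). Those that rose were led by the adaptor Lcp2, also known as SLP-76 (1.53 ± 0.11), the exchange factor Vav1 (0.83 ± 0.08), and the adaptors Fyb (1.19 ± 0.13), Sla (1.09 ± 0.16), Nck1 (0.67 ± 0.11) and Bcl10 (0.30 ± 0.10). Lcp2, Vav1 and Fyb are also used by myeloid cells. Under library totals alone 16 fell and 4 rose, beside 1204 lower and 1846 higher of all 12266 genes.

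In LPS against PBS, 19 of the 38 fell, 2 rose and 17 did not pass, with a median of -0.73. Of all genes tested there, 17.9% were called lower and 20.9% higher, with a median of -0.04. The 6 with the smallest p among those that fell were Cd5 (-2.54 ± 0.26), the co-stimulatory receptor Cd28 (-1.95 ± 0.21), the receptor Cd6 (-2.23 ± 0.26), Themis, which acts in thymic selection (-2.55 ± 0.32), Cd2 (-1.71 ± 0.24) and Plcg1 (-1.86 ± 0.28). Vav1 (0.85 ± 0.16) and Lcp2 (1.08 ± 0.22) rose. With library totals alone, 4 fell and 9 rose, and the median was 0.38, or -0.66 relative to that of all genes. Of all 12353 genes, 298 were then called lower and 5597 higher. Without the libraries of few detected genes, 23 of the 38 fell and 4 rose, beside 2559 lower and 2735 higher of all 12303 genes. Of 20 other T cell markers, 1 of which (Trat1) is also in the signalling list, 19 fell and 0 rose in each of the comparisons with LPS. On library totals alone, 15 of these 20 fell in ALY688+LPS against ALY688, beside 1204 of all 12266 genes. In LPS against PBS 6 of the 20 fell, beside 298 of all 12353 genes.

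No signalling gene passed for ALY688 in edgeR. In ALY688+LPS against LPS, where 4 of the 38 had an unadjusted p under 0.05, the nearest to the threshold were Cd5 (0.86 ± 0.27) and Trat1, an adaptor bound to the receptor complex (1.35 ± 0.50), on the higher side. Tespa1 (-0.33 ± 0.22) and Nfatc2 (-0.32 ± 0.23) were the nearest on the lower side. The edgeR adjusted p was 0.913 for each of these genes. Cd5 stood at 3.81 to 8.31 CPM in ALY688+LPS mice and 2.31 to 4.35 CPM in LPS mice. In ALY688 against PBS, where 6 of the 38 had an unadjusted p under 0.05, the nearest were Rasgrp1 (0.34 ± 0.16), Cblb (0.30 ± 0.14), Bcl10 (-0.44 ± 0.17) and Prkcq (-0.58 ± 0.22).

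The constant genes of the other T cell receptor, that of gamma-delta T cells, were low. Trdc, the delta constant region, ranged over 1.83 to 6.09 CPM in ALY688+LPS mice and 2.10 to 6.04 CPM in ALY688 mice. It averaged 3.16 ± 0.333 CPM in LPS mice and 4.28 ± 1.98 CPM in PBS mice (SD, n = 4 and 9). It did not pass in ALY688+LPS against ALY688 (-0.32 ± 0.26, edgeR adjusted p = 0.322) or in LPS against PBS (-0.44 ± 0.34, edgeR adjusted p = 0.322). The gamma constant genes Trgc1 (-1.63 ± 0.49, edgeR adjusted p = 0.00914) and Trgc4 (-1.17 ± 0.43, edgeR adjusted p = 0.0283) fell in ALY688+LPS against ALY688, at mean levels of at most 2.10 CPM in any group. Trgc4 was not called there with library totals alone (edgeR adjusted p = 0.138). Trgc2 passed in neither comparison, and Trgc3 did not pass the filter on low counts. Of the 4 gamma-delta genes tested, 2 were thus called lower in ALY688+LPS against ALY688, beside 26.6% of all genes. In LPS against PBS 0 of the 4 were called, beside 17.9% of all genes lower. Whether Trdc changed less than the alpha and beta genes was not tested.

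The genes most like the complex were sought by the SD over the 30 libraries of their log2 level minus the mean log2 level of the members, among 11581 genes with a mean of at least 1 CPM. Among the 8 with the smallest SD were Plcg1 (0.245), Cd6 (0.247), Il27ra (0.268), Kbtbd11 (0.289), Dtx1 (0.289), Ablim1 (0.298) and Gimap3 (0.299), beside a median of 1.07 over all genes compared. Measured against the mean of the other 9, the members ran from 0.200 for Trac and 0.252 for Cd3g to 0.397 for Cd247 and 0.433 for Trbc1. Trac thus followed the rest of the complex most closely, and Cd247 and Trbc1 least closely.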

How the data were processed

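Blood mRNA of 30 of 34 labelled mice was analysed. The authors deposited raw read counts per gene, as whole numbers, with a table for each mouse. Per the submitters' processing notes, HISAT2 2.0.5 was the aligner and featureCounts 1.5.0-p3 the counter. Genome build, annotation and strand setting are not stated in these sources. GENCODE M21 (GRCm38) gave symbols for 54495 of 54532 gene IDs, and exon lengths and coordinates. Every pair of libraries within a group differed beyond sampling noise (chi-square per degree of freedom of at least 8.02), so none was a copy of another. Each library is counted as 1 replicate because its label names 1 mouse. Libraries held 9554964 to 17338214 counts. The floor of 3 counts in a library stood between 0.173 and 0.314 CPM before TMM scaling and between 0.0688 and 0.904 CPM after it. This floor covers counting error only.

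Counts were scaled with TMM, filtered with filterByExpr and tested on all genes with edgeR 4.0.16 (robust glmQLFit, glmQLFTest, two-sided) in R 4.3.3, with a Benjamini-Hochberg adjusted p below 0.05 over all genes as the threshold. Only the groups compared entered a fit, and all 4 the interaction. The scripts were tested on simulated data. Ratios had 0.5 added to each count and were compared with exact permutation tests in scipy 1.17.1. DESeq2 1.42.0, limma-voom (limma 3.58.1), other scalings, no filter, a globin covariate, mouse number as a block and leaving out mice were tried as alternatives. The sources used here do not state that mouse numbers pair animals, so no block was used in the reported fits. Same-numbered mice of the groups compared did not deviate together as a rule. The median correlation per comparison lay between -0.37 and -0.0070, single values ran from -0.50 to 0.30, and no mouse correlated best with its own number.

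The members and gene lists were chosen with earlier results of these data known. By rule, all members are named, with up to 6 signalling genes per direction and comparison by smallest p (or the nearest 2), the gamma-delta constant genes and the 8 genes of most similar pattern. Some genes that this rule names are not reported here.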

Additional observations from a re-analysis of the deposited data

Results flagged for a closer look

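Among 44 sets of member values within a group, 3 held a mouse far from the rest of its group, where chance alone flags about 1 in 20. PBS mouse 9 held 9.88 CPM of Cd3d, against 23.1 CPM in the next lowest PBS mouse. The same mouse held 7.53 CPM of Trbc1, against 29.0 CPM in the next lowest. It had 14961 genes with a count, and 384 counts over the 10 members. Its library held 10947191 counts in all, within the 9554964 to 11289689 of the PBS group. ALY688+LPS mouse 8 held 5.84 CPM of Trbc1, against 11.8 CPM in the next lowest mouse of its group. It had 14351 genes with a count and 10087871 counts in all, both the fewest of its group, and 278 counts over the members. The part of depth in these values was not tested.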

How the results depend on the processing

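All 10 members were called in ALY688+LPS against ALY688 under every alternative run, and in LPS against PBS under all but library totals alone (0 called, with 0.0155 for Cd247). Leaving out each mouse in turn kept 10 called in both and 0 in the other comparisons. With mouse number as a replicate block, 10 and 10 members were called across LPS and 0 in the other comparisons, and only the sign of Cd3e in ALY688 against PBS turned (-0.0119). The sources used here do not state whether same-numbered mice were paired. Among all genes, library totals alone called 3050 in ALY688+LPS against ALY688, beside 6503 with TMM.

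Some uncalled log2 fold changes turned sign, up to the 0.74 of Cd3d in the interaction. In ALY688 against PBS, Cd3e was -0.00454 with RLE size factors and -0.00319 with DESeq2, and Cd3d was 0.26 with library totals alone. Leaving out the libraries of few detected genes gave -0.12 for Cd3e, -0.0325 for Cd3g, -0.0644 for Cd247, -0.10 for Trac, -0.0282 for Trbc2, -0.0354 for Cd8a and -0.12 for Cd8b1. A globin covariate gave -0.20, -0.13, -0.17, -0.0825, -0.13, -0.13 and -0.28 for the same genes. In ALY688+LPS against LPS, library totals alone gave -0.12 for Cd3d, -0.12 for Cd3e, -0.0264 for Cd3g, -0.40 for Trbc2, -0.11 for Cd4 and -0.0329 for Cd8a. There Trbc1 was 0.0171 when libraries of few detected genes were left out, 0.15 with the covariate and 0.0142 summed with Trbc2, and Cd247 was 0.0323 with the covariate. In the interaction, library totals alone moved the median of all genes to -0.997 and gave -0.38 for Cd3d, -0.60 for Cd3e, -0.58 for Cd3g, -0.42 for Trac, -0.90 for Trbc2, -0.98 for Cd4, -0.66 for Cd8a and -0.35 for Cd8b1, which relative to that median are positive. The covariate gave 0.24 for Cd247 and 0.0122 for Trbc1, and the sum of both beta genes gave -0.0987. The cause of the other changes was not tested.

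With each mouse left out in turn, ALY688 against PBS ran from -0.0947 to 0.0995 for Cd3e, -0.0150 to 0.14 for Cd3g, -0.00977 to 0.15 for Cd247, -0.0205 to 0.159 for Trac, -0.0790 to 0.0889 for Trbc2 and -0.0492 to 0.185 for Cd8b1. ALY688+LPS against LPS ran from -0.267 to 0.0636 for Cd247 and -0.235 to 0.0215 for Trbc1, and the interaction of Cd4 from -0.0834 to 0.202. The Cd8a to Cd4 difference in ALY688+LPS against ALY688 ran from 0.59 to 0.76, and was 0.52 with Cd8b1 in place of Cd8a. In LPS against PBS it ran from 0.44 to 0.67, passing only without PBS mouse 8, and was -0.0247 with Cd8b1. It ran from -0.0589 to 0.137 in ALY688+LPS against LPS and from -0.183 to 0.0329 in ALY688 against PBS. Counts over the 10 genes were fewest in ALY688+LPS mouse 8, LPS mouse 7 and PBS mouse 9, with 278, 597 and 384.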
